A study of Mus musculus with 28 samples.

Results

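The genes described here are 8 midbrain and hindbrain patterning genes of the mouse, *En1*, *En2*, *Gbx2*, *Lmx1a*, *Lmx1b*, *Fgf8*, *Fgf15* and *Fgf17*, out of 28244 genes counted by bulk RNA-seq in 28 samples. They were taken by name, and the set was chosen partly by the readout itself, because *En1* and *En2* were high in lung pNSCs. Their levels in lung pNSCs are therefore given as a description with no test. The samples fall into 11 groups, 5 of 2 samples and 6 of 3. Peripheral neural stem cells (pNSCs) are colonies with a neural stem cell (NSC) phenotype that were grown from tissues outside the brain, picked by hand, usually clonal, and expanded in medium with EGF and bFGF at 10 ng/mL each.

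The first experiment holds Tail-pNSC, Lung-pNSC, Brain-NSC, Tail and Lung, with 2 samples each. Its labels name no reporter, and by the study's methods these pNSCs came from GFP+ cells of Nes-GFP mice, from the postnatal tail and the adult lung. Tail and Lung are the tissue cells. The methods describe tail cells of postnatal mice only, and lung cells of both ages, so the age of the Lung samples is not given in the sources used here. The Sox2-GFP experiment holds Sox2-GFP lung pNSCs, grown from GFP+ postnatal lung cells of mice with GFP at the *Sox2* locus, and Sox2-GFP brain NSCs, with 3 samples each. The Wnt1Cre-mTmG experiment holds Wnt1Cre-mTmG Tail pNSCs, Wnt1Cre-mTmG DRG pNSCs and Wnt1Cre-mTmG brain NSCs, with 3 samples each, and 3 samples of DRG NCSCs, which are neural crest stem cells from dorsal root ganglia (DRG) of adult wild-type mice. Its pNSCs came from postnatal tail and DRG, so age and mouse line differ between them and the DRG NCSCs and cannot be told apart from the cell type. Brain NSCs were made from whole brains of adult or postnatal mice, and which age each brain NSC group had is not given in the sources used here. In Wnt1Cre-mTmG mice, cells that have expressed Cre from the *Wnt1* promoter, including the neural crest and part of the dorsal neural tube, switch from Tomato to GFP, and the pNSCs used were Tomato+/GFP-. Adult means 4 to 6 weeks and postnatal means day 1 to day 5 in the study's methods. All samples are labelled C57BL/6, whereas the study's methods give CD1 or CD1 and C3H mixtures as the background. The study calls its samples biological replicates and says that brain NSC controls came in most cases from the same mice as the pNSCs. Which samples share an animal or a clonal line is not given in the sources used here, so p-values measure the spread between these samples.

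In the embryo, the isthmus at the boundary of midbrain and hindbrain acts as an organizer. *Otx2* on the midbrain side and *Gbx2* on the hindbrain side set its position, and the isthmus secretes Fgf8 and Fgf17. The engrailed homeodomain factors *En1* and *En2* are expressed on both sides of the isthmus. *Lmx1a* and *Lmx1b* are LIM-homeodomain factors of the roof plate, of midbrain dopaminergic progenitors and, for *Lmx1b*, of the isthmus and hindbrain serotonergic neurons. Several of these genes also act outside the brain, for example *En1* in the skin and *Lmx1b* in the limb.

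On GRCm38, *En1* lies at chr1:120602418-120607992, *Gbx2* at chr1:89927956-89931179 and *Lmx1a* at chr1:167689237-167848741. *En2* lies at chr5:28165694-28172166, *Lmx1b* at chr2:33560965-33640511, *Fgf8* at chr19:45736798-45742915, *Fgf15* at chr7:144896531-144900953 and *Fgf17* at chr14:70636203-70642268. *En1*, *En2*, *Lmx1a* and *Fgf15* are on the plus strand and the other 4 on the minus strand. Whether the counting used strand is not given in the sources used here, so reads of *Gbx2*, *En2*, *Lmx1b* and *Fgf15* cannot be told apart from those of annotated genes on the opposite strand where they overlap.

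Because *En1* and *En2* are paralogs whose levels are compared below, the aligned homeobox stretches of their coding sequences are shown. Each window has 180 bases, codons 311 to 370 of *En1* and codons 234 to 293 of *En2* (in a GENCODE M21 transcript of each), and capitals mark the 30 bases at which they differ.
En1: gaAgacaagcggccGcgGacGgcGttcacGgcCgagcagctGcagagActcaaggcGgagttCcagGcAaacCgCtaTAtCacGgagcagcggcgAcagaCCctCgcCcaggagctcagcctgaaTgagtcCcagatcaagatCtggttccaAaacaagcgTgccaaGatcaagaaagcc
En2: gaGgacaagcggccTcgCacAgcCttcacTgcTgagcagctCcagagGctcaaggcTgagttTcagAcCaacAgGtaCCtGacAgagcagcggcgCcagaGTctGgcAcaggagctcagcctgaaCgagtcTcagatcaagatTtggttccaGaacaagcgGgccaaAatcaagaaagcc
The windows match at 150 of 180 bases (83.3%), and 57 of the 60 codons encode the same residue. Over the whole transcripts, the longest identical stretch had 17 bases (caggagctcagcctgaa). The longest shared stretches were 21 bases for *Lmx1a* and *Lmx1b* (aagatgaagaagctggcccgg) and 20 bases for *Fgf8* and *Fgf17* (ctggagaacaactacacggc). How the read counting treated multiply mapped reads was not tested.

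Total counts ran from 9808246 to 22637031 per sample, and were lowest in Wnt1Cre-mTmG brain NSCs (9846360 to 11315870) and Wnt1Cre-mTmG DRG pNSCs (9808246 to 11431445). A count of 0 allows up to 3 counts in a library, for counting error only. Summed over 8 NSC markers, the level was 4563 to 6542 on the counts-per-million scale (cpm, scaled by TMM) in the pNSCs and brain NSCs, 1443 to 1826 in DRG NCSCs, 293 to 317 in Lung and 86.7 to 90.3 in Tail. The 7 neural crest or Schwann markers summed to 4323 to 4408 cpm in DRG NCSCs and 8.74 to 139 cpm in pNSCs and brain NSCs. None of 5 lung epithelium markers had a count in Lung-pNSC, and in Sox2-GFP lung pNSCs they summed to 0 to 0.144 cpm. In pNSCs and brain NSCs, the keratinocyte markers summed to 8.41 to 12.4 cpm, endothelial markers to 0.922 to 4.87, leukocyte markers to 0.787 to 3.66, muscle markers to 0 to 0.461 and neuron markers to 821 to 1801. The 8 fibroblast markers summed to 492 to 498 cpm in Wnt1Cre-mTmG Tail pNSCs against 54.5 to 57.0 cpm in Wnt1Cre-mTmG brain NSCs, and their part in the results below was not tested. DRG NCSCs replicate 3 stood apart from replicates 1 and 2: the chi-square per degree of freedom between libraries was 16.8 and 21.0 for pairs with it, 2.22 for the other pair, and 1.09 to 2.82 within the other groups.

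Members were detected unevenly among the groups. More than 3 counts in every library were found for 6 members in Lung-pNSC, for 5 each in Tail-pNSC, Brain-NSC and Sox2-GFP brain NSCs, and for 4 each in Sox2-GFP lung pNSCs and Wnt1Cre-mTmG brain NSCs. In Tail, Wnt1Cre-mTmG Tail pNSCs and Wnt1Cre-mTmG DRG pNSCs it was 3 members each, in DRG NCSCs 2, and in Lung 1, *Lmx1b*. *En1*, *En2* and *Gbx2* passed this mark in all 8 groups of pNSCs and brain NSCs. In bulk samples, fewer cells that express a gene and less RNA per cell cannot be told apart.

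**Figure D1:**
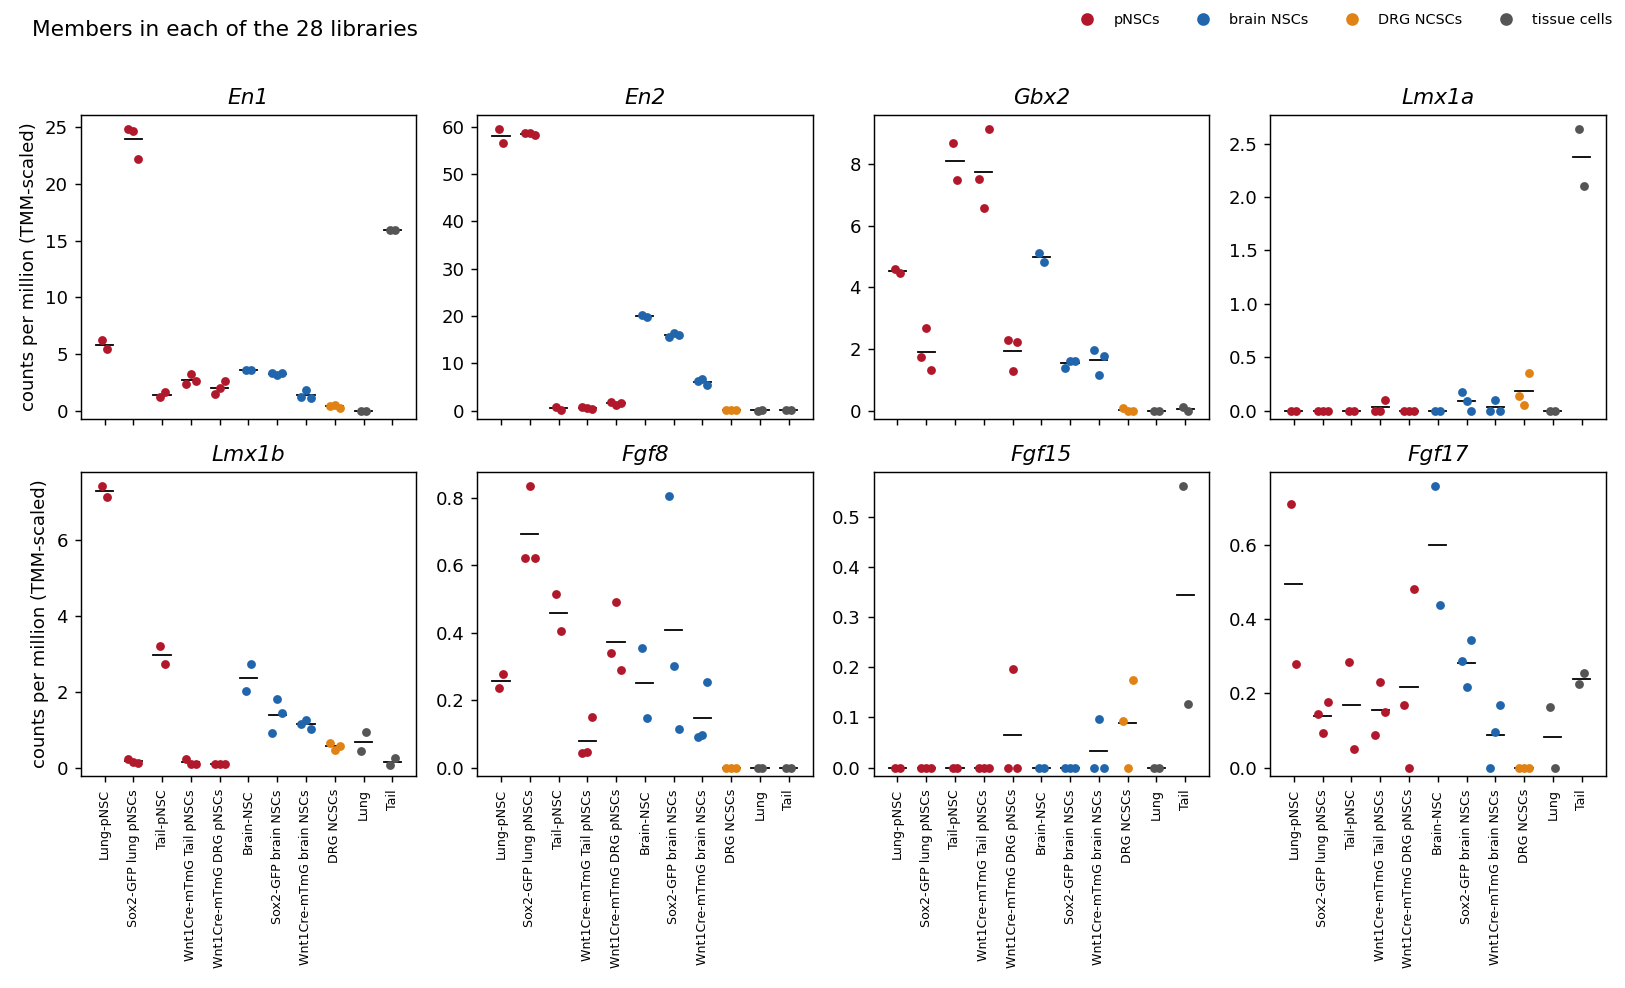
TMM-scaled cpm (y axis) of the 8 genes in each library (points) of the 11 groups (x axis), with group means as bars and a separate linear y scale for each gene. *En2* stands at 56.6 to 59.6 in the lung pNSC libraries, *Gbx2* is highest in the tail pNSC groups, and *Lmx1a* is above 1 only in Tail.

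Of the engrailed pair, *En2* was the more abundant in the lung pNSCs and in all 3 groups of brain NSCs, and *En1* in the tail and DRG groups. *En2* had 1257 and 1013 counts in Lung-pNSC and 1225, 1264 and 1314 in Sox2-GFP lung pNSCs. Its counts were 399 and 404 in Brain-NSC, 271, 378 and 278 in Sox2-GFP brain NSCs, and 71, 69 and 63 in Wnt1Cre-mTmG brain NSCs. The pNSCs from the tail and DRG were lower than these, with 14 and 4 in Tail-pNSC, 15, 11 and 8 in Wnt1Cre-mTmG Tail pNSCs, and 22, 12 and 16 in Wnt1Cre-mTmG DRG pNSCs. DRG NCSCs (2, 1 and 1), Tail (1 and 2) and Lung (0 and 1) were at or under 3 counts. As levels, *En2* was 58.6 ± 0.205 cpm (SD, n = 3) in Sox2-GFP lung pNSCs and 58.1 ± 2.17 cpm (n = 2) in Lung-pNSC, which overlapped. Next came Brain-NSC at 20.0 ± 0.395 cpm, Sox2-GFP brain NSCs at 16.0 ± 0.364 cpm, Wnt1Cre-mTmG brain NSCs at 6.11 ± 0.704 cpm and Wnt1Cre-mTmG DRG pNSCs at 1.53 ± 0.341 cpm, each apart from its neighbours in this order. Wnt1Cre-mTmG Tail pNSCs (0.521 ± 0.127 cpm) and Tail-pNSC (0.501 ± 0.422 cpm) overlapped.

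*En1* followed another order, with Tail among the highest groups. It had 520, 532 and 501 counts in Sox2-GFP lung pNSCs, 284 and 250 in Tail, and 131 and 97 in Lung-pNSC. Brain-NSC had 71 and 73 and Sox2-GFP brain NSCs 57, 73 and 57. Tail-pNSC had 21 and 32, below every Tail library. The Wnt1Cre-mTmG groups had 53, 70 and 52 counts in the pNSCs from tail, 17, 20 and 27 in those from DRG and 13, 19 and 13 in the brain NSCs, and DRG NCSCs had 8, 10 and 4. Lung had no count of *En1*. The levels were 24.0 ± 1.48 cpm (SD, n = 3) in Sox2-GFP lung pNSCs, 16.0 ± 0.00114 cpm (n = 2) in Tail, 5.81 ± 0.564 cpm in Lung-pNSC and 3.58 ± 0.0321 cpm in Brain-NSC, each apart from the next. From Sox2-GFP brain NSCs (3.24 ± 0.0702 cpm) through Wnt1Cre-mTmG Tail pNSCs (2.72 ± 0.460), Wnt1Cre-mTmG DRG pNSCs (2.00 ± 0.579) and Tail-pNSC (1.41 ± 0.299) to Wnt1Cre-mTmG brain NSCs (1.37 ± 0.410), each group overlapped its neighbour in the order, and DRG NCSCs were lower, at 0.359 ± 0.120 cpm.

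Per kilobase of exon, the level of *En2* was 7.41 times that of *En1* in Lung-pNSC, 4.14 in Brain-NSC, 3.66 in Sox2-GFP brain NSCs, 3.32 in Wnt1Cre-mTmG brain NSCs and 1.81 in Sox2-GFP lung pNSCs. So both lung pNSC groups had *En2* above *En1*, but with a ratio of 7.12 and 7.74 in the samples of one and 1.75, 1.76 and 1.95 in those of the other. On the same scale, *En1* was 1.77 times *En2* in Wnt1Cre-mTmG DRG pNSCs, 3.80 times in Tail-pNSC, 7.03 times in Wnt1Cre-mTmG Tail pNSCs and 234 times in Tail, where *En2* had 1 and 2 counts. These rest on few *En2* counts and differ between samples: the level of *En2* relative to *En1* was 0.494 and 0.0927 in the Tail-pNSC samples, 0.114 to 0.210 in Wnt1Cre-mTmG Tail pNSCs, and 0.00261 and 0.00593 in Tail. Across the 11 group means, *En1* and *En2* had a Pearson r of 0.54 on log2(cpm + 1), a description over groups that differ in tissue and library depth.

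For the lung pNSCs, the fold changes are part of how the genes were chosen, and no test was made. Lung-pNSC had 1.53 higher log2 *En2*, 0.70 higher *En1* and 1.60 higher *Lmx1b* than Brain-NSC (8.71% of all 16948 genes tested passed the call of the other comparisons, given below). Sox2-GFP lung pNSCs had 1.87 higher log2 *En2* and 2.89 higher *En1* than Sox2-GFP brain NSCs, whereas *Lmx1b* was 3.03 lower on the log2 scale (15.7% of 16234 genes passed). Against the shared Lung samples (55.0% and 56.3% of genes passed), *En1* was at least 33.2-fold higher in Lung-pNSC and at least 137-fold higher in Sox2-GFP lung pNSCs, with 3 counts per library taken as the floor. *En2* had a single count in the 2 Lung libraries, and the ratio to it was 2004 (95% exact counting interval 359 to 79200) in Lung-pNSC and 2017 (362 to 79670) in Sox2-GFP lung pNSCs. Against Tail-pNSC, Lung-pNSC had log2 differences of 6.88 for *En2*, 2.02 for *En1*, 1.29 for *Lmx1b* and -0.84 for *Gbx2* (12.9% of genes passed). Without Tail-pNSC replicate 1 the *En2* difference was 8.11.

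*Gbx2* was highest in pNSCs from the tail. Its counts were 152 and 148 in Tail-pNSC and 172, 143 and 182 in Wnt1Cre-mTmG Tail pNSCs. Brain-NSC had 101 and 99 and Lung-pNSC 97 and 80. The remaining neural groups had 12 to 58 counts: 36, 58 and 30 in Sox2-GFP lung pNSCs, 24, 37 and 28 in Sox2-GFP brain NSCs, 27, 13 and 23 in Wnt1Cre-mTmG DRG pNSCs, and 22, 12 and 21 in Wnt1Cre-mTmG brain NSCs. DRG NCSCs had 2, 0 and 0, Tail had 2 and 0, and Lung had none, so the tissue cells and the neural crest stem cells were at or under the floor. The level was 8.09 ± 0.836 cpm (SD, n = 2) in Tail-pNSC and 7.75 ± 1.31 cpm (n = 3) in Wnt1Cre-mTmG Tail pNSCs, which overlapped. Brain-NSC followed at 4.97 ± 0.213 cpm and Lung-pNSC at 4.53 ± 0.0949 cpm. The next 4, Wnt1Cre-mTmG DRG pNSCs (1.93 ± 0.561 cpm), Sox2-GFP lung pNSCs (1.92 ± 0.702), Wnt1Cre-mTmG brain NSCs (1.63 ± 0.420) and Sox2-GFP brain NSCs (1.53 ± 0.127), overlapped in a row.

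*Lmx1b* did not follow the tissue of origin. It had 157 and 128 counts in Lung-pNSC but 5, 3 and 3 in Sox2-GFP lung pNSCs, and 56 and 54 in Tail-pNSC but 5, 2 and 2 in Wnt1Cre-mTmG Tail pNSCs. The brain NSCs had 40 and 56 in Brain-NSC, 16, 42 and 25 in Sox2-GFP brain NSCs and 13, 13 and 12 in Wnt1Cre-mTmG brain NSCs. Wnt1Cre-mTmG DRG pNSCs had 1 count in each library, DRG NCSCs 14, 10 and 10, Lung 8 and 15 and Tail 1 and 4. As levels, Lung-pNSC (7.30 ± 0.212 cpm, SD, n = 2), Tail-pNSC (2.97 ± 0.327 cpm) and Brain-NSC (2.38 ± 0.494 cpm) came first, in the same experiment.

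*Lmx1a* was found in Tail, with 47 and 33 counts (2.37 ± 0.378 cpm, SD, n = 2). It had no count in Tail-pNSC, Lung-pNSC, Brain-NSC, Lung, Sox2-GFP lung pNSCs or Wnt1Cre-mTmG DRG pNSCs. DRG NCSCs had 3, 1 and 6 counts, Sox2-GFP brain NSCs 3, 2 and 0, Wnt1Cre-mTmG Tail pNSCs 0, 0 and 2 and Wnt1Cre-mTmG brain NSCs 0, 1 and 0.

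The ligands were rare in every group. *Fgf8*, the main organizer signal of the isthmus, had 13, 18 and 14 counts in Sox2-GFP lung pNSCs (0.693 ± 0.124 cpm, SD, n = 3) and 9 and 8 in Tail-pNSC. It had 14, 7 and 2 in Sox2-GFP brain NSCs, 7 and 3 in Brain-NSC, 5 and 5 in Lung-pNSC, 4, 5 and 3 in Wnt1Cre-mTmG DRG pNSCs, and 1, 1 and 3 both in Wnt1Cre-mTmG Tail pNSCs and in Wnt1Cre-mTmG brain NSCs. Tail, Lung and DRG NCSCs had none. *Fgf17*, a related ligand of the same region, had 0 to 15 counts in any library and was highest in Brain-NSC, with 15 and 9 (0.600 ± 0.228 cpm), and in Lung-pNSC, with 15 and 5. *Fgf15*, the mouse ortholog of human FGF19, had 10 and 2 counts in Tail, and 0 to 3 in every other library.

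The tests below are edgeR quasi-likelihood tests with Benjamini-Hochberg adjustment over all genes tested. A call needed both an adjusted p under 0.05 and a log2 fold change of 1 or more in size. Members under the low-count filter were not tested.

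Between Tail-pNSC and Brain-NSC, which asks how a peripheral line differs from brain NSCs of the same experiment, 6 members passed the filter. *Lmx1a* did so through Tail alone and had no count in either group compared, so it could not be called. Of the other 5, 3 were called, all lower in Tail-pNSC, where 10.9% of all 16948 genes were called. *En2* was lower by far the most, with a log2 fold change of -5.35 (SE 0.21, adjusted p = 1.95e-141), and its libraries did not overlap between the groups. It was -6.57 without Tail-pNSC replicate 1 and -4.63 without replicate 2. *En1* had a log2 fold change of -1.33 (SE 0.26, adjusted p = 1.19e-06). *Fgf17* was also called (-1.84, SE 0.73, adjusted p = 0.0243), on 5 and 1 counts against 15 and 9, and the call was lost without Tail-pNSC replicate 2 (-1.05, adjusted p = 0.368), without Brain-NSC replicate 1 (-1.40, adjusted p = 0.258) and with DESeq2 (adjusted p = 0.173). *Gbx2* was higher by 0.70 (SE 0.18, adjusted p = 0.00024), under the fold limit. For *Lmx1b* the difference was 0.31 (95% interval -0.19 to 0.81, adjusted p = 0.334).

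Against the Tail cells, Tail-pNSC had *Gbx2*, *Lmx1b* and *En2* higher and *En1* lower (46.7% of all genes called). *Gbx2* had 300 counts over the 2 Tail-pNSC libraries against 2 in Tail, a ratio of 135 (95% exact counting interval 37.0 to 1119, adjusted p = 5.06e-52), and both Tail counts lie in replicate 1 (fitted log2 fold change 10.21 without Tail replicate 1, which depends on the prior count, and 6.01 without replicate 2). *Lmx1b* was higher by 4.16 on the log2 scale (SE 0.49, adjusted p = 4.16e-17), and by 3.42 to 5.49 when either Tail library was left out. *En2* was called higher on 18 counts against 3, a ratio of 5.39 (1.58 to 28.6, adjusted p = 0.00554), but not without Tail-pNSC replicate 1 (log2 fold change 1.05, adjusted p = 0.391) or without Tail replicate 1 (1.79, adjusted p = 0.0768). *En1* was lower in Tail-pNSC (-3.57, SE 0.20, adjusted p = 7.27e-71). *Lmx1a* was at least 14.7-fold lower, given with no test because it passed the filter only through the Tail libraries. Fibroblast markers summed to 71386 to 73291 cpm in Tail against 39.8 to 40.2 cpm in Tail-pNSC, and keratinocyte markers to 4693 to 4805 against 8.41 to 9.25 cpm, with a count for all 8 and all 4 of them in Tail, and their part in these differences was not tested.

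Between the tissues, *En1* and *Lmx1b* were called in Tail against Lung (43.4% of all genes called). *En1* was at least 91.1-fold higher in Tail (adjusted p = 4.40e-109). *Lmx1a* was at least 13.6-fold higher, with no test for the reason given. *Lmx1b* was lower in Tail, with 1 and 4 counts against 8 and 15 (log2 fold change -2.06, SE 0.70, adjusted p = 0.00437), a call lost without Tail replicate 1 (-1.30, adjusted p = 0.124) or Lung replicate 2 (-1.44, adjusted p = 0.134).

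In the Wnt1Cre-mTmG experiment, all 4 members that passed the filter were called in Tail pNSCs against brain NSCs, where 18.2% of all 14448 genes were called, with 2 members higher and 2 lower. *En2* was lower (-3.51, SE 0.22, adjusted p = 1.82e-10). *Lmx1b*, the other lower one, passed the filter through the brain NSC libraries alone, so against them it could only be called lower. Its difference (-2.96, SE 0.38) is given with no test, and the numbers above include it. *Gbx2* was higher (2.23, SE 0.23, adjusted p = 1.80e-07), and *En1* was just past the fold limit (1.01, SE 0.26, adjusted p = 0.00267). *En1* fell under that limit without Tail pNSCs replicate 2 (0.86) or brain NSCs replicate 1 (0.91) or 3 (0.87).

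Against the same brain NSCs, Wnt1Cre-mTmG DRG pNSCs had 2 members called, both lower (9.53% of all genes called). *En2* was lower by 1.98 on the log2 scale (adjusted p = 4.76e-07). *Lmx1b*, with 3 counts over the DRG pNSC libraries against 38, was lower by a ratio of 12.3 (95% exact counting interval 3.90 to 62.2). It counts among the 2 but is given with no test, because it passed the filter through the brain NSCs alone. For *En1* the difference was 0.55 (95% interval -0.10 to 1.20, adjusted p = 0.161) and for *Gbx2* 0.24 (-0.45 to 0.93, adjusted p = 0.589). Compared directly with DRG pNSCs (18.0% of all genes called), Wnt1Cre-mTmG Tail pNSCs had higher *Gbx2* (4.02 times in mean cpm, log2 SE 0.22, adjusted p = 5.14e-07) and lower *En2* (-1.53, SE 0.29, adjusted p = 0.000187). *En1* (0.46, adjusted p = 0.107) and *Lmx1b* (0.56, adjusted p = 0.589) did not pass. These comparisons share the brain NSC or pNSC samples.

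DRG NCSCs, the peripheral neural crest reference, had 3 members lower than Wnt1Cre-mTmG brain NSCs (36.9% of all genes called). *En2* was lower by a ratio of 91.1 (95% exact counting interval 35.0 to 338, adjusted p = 3.69e-12) and *Gbx2* by 49.4 (13.0 to 418, adjusted p = 6.47e-07), and the log2 fold change of *En1* was -1.85 (SE 0.38, adjusted p = 0.000283). *Lmx1b* was at -0.98, under the fold limit, and past it without DRG NCSCs replicate 1 (-1.10) or brain NSCs replicate 3 (-1.07). It is given with no test, because it passed the filter through the brain NSC libraries alone. Markers of other cell types were also higher in DRG NCSCs than in these brain NSCs: the 8 fibroblast markers summed to 2903 to 3522 cpm against 54.5 to 57.0, the 3 leukocyte markers to 74.0 to 82.6 against 1.88 to 2.71 and the 3 endothelial markers to 23.0 to 28.3 against 2.59 to 2.79, each of them with a count in DRG NCSCs. Their part in the comparisons with DRG NCSCs was not tested.

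Both Wnt1Cre-mTmG pNSC groups had *En1*, *En2* and *Gbx2* higher and *Lmx1b* lower than DRG NCSCs, that is 4 of 4 members tested in each (37.9% of all genes called for Tail and 38.3% for DRG). The log2 differences of *En1* were 2.85 (adjusted p = 7.87e-08) for Tail pNSCs and 2.40 (adjusted p = 7.10e-06) for DRG pNSCs. The ratios of *En2* were 7.90 (2.82 to 30.6) and 23.1 (8.50 to 88.3), and those of *Gbx2* 231 (63.6 to 1911) and 58.3 (15.5 to 492), with 95% exact counting intervals. Both *Gbx2* counts of DRG NCSCs lie in replicate 1, without which the fitted log2 differences were 9.89 and 7.90 here and -7.66 against brain NSCs, values that depend on the prior count. *Lmx1b* was lower by 1.97 on the log2 scale in Tail pNSCs (adjusted p = 0.000214), and by a ratio of 6.12 (1.93 to 31.2) in DRG pNSCs (adjusted p = 0.000415). The same 3, 4 and 4 members were called in the comparisons with DRG NCSCs when replicate 3 was left out. Then *En1* was at -1.65 against brain NSCs and at 2.66 and 2.2 in Tail and DRG pNSCs against DRG NCSCs.

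**Figure D2:**
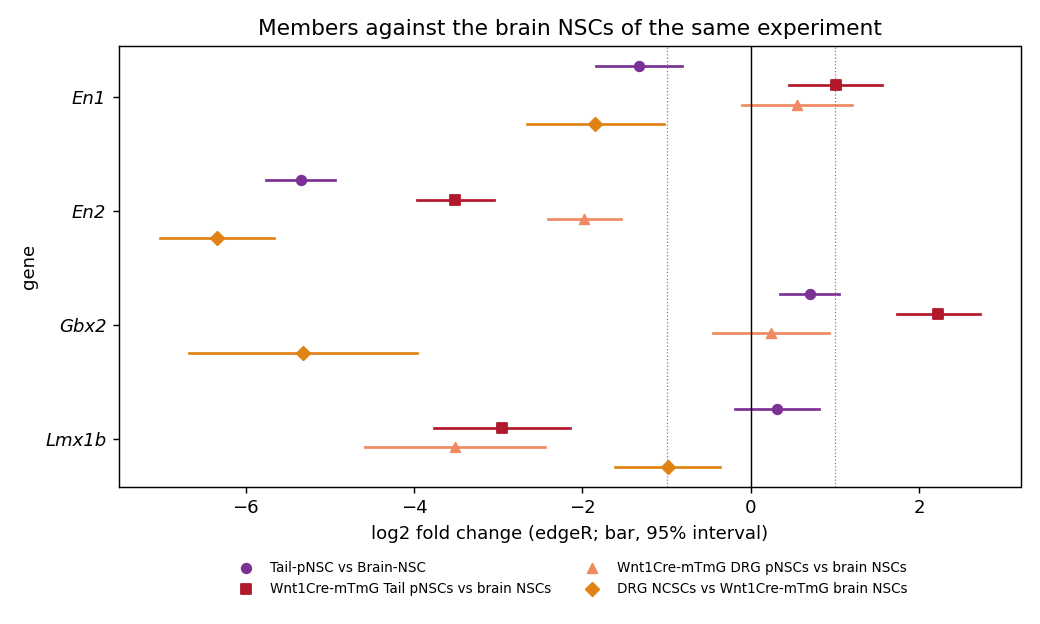
edgeR log2 fold changes (x axis, bars are 95% intervals, dotted lines the fold limit) of 4 genes (y axis) in Tail-pNSC against Brain-NSC and in the Wnt1Cre-mTmG pNSCs and DRG NCSCs against Wnt1Cre-mTmG brain NSCs. *En2* is lower in all 4 comparisons (-1.98 to -6.34), and *En1* and *Lmx1b* differ in direction or size between the tail pNSC lines. The *Lmx1b* values against Wnt1Cre-mTmG brain NSCs are a description with no test.

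The tail pNSC effect, each tail pNSC group against the brain NSCs of its own experiment, was compared between the experiments with an interaction term over all 28 samples. It differed in 4 of the 7 members that passed the filter, where 16.0% of all 17393 genes were called, and *Lmx1a*, one of the 7, had at most 2 counts in any library of these 4 groups. The difference, Tail-pNSC effect minus Wnt1Cre-mTmG Tail pNSC effect, was -2.33 for *En1* (SE 0.32, adjusted p = 1.47e-07), -1.83 for *En2* (SE 0.41, adjusted p = 0.000273), -1.53 for *Gbx2* (SE 0.31, adjusted p = 7.93e-05) and 3.28 for *Lmx1b* (SE 0.53, adjusted p = 2.11e-06). The *En2* difference was -3.05 without Tail-pNSC replicate 1 and -1.10 without replicate 2. As levels, *En2* was at 20.0 cpm in Brain-NSC and 6.11 cpm in Wnt1Cre-mTmG brain NSCs, but at 0.501 and 0.521 cpm in the tail pNSCs, and *Gbx2* was at 4.97 and 1.63 cpm against 8.09 and 7.75 cpm. Reporter, mouse line and library depth differ with the experiment and cannot be told apart. *Fgf8* (1.75, adjusted p = 0.246) and *Fgf17* (-2.58, adjusted p = 0.0906) did not pass, and *Fgf17* did without Tail-pNSC replicate 1 (-4.12, adjusted p = 0.0351).

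Of the genes whose group means most resembled those of a member, *Cnpy1* was nearest to *En2* (Pearson r = 0.98 on log2(cpm + 1) over 11 group means, among 14450 genes). Canopy 1 is known as a regulator of FGF signalling at the isthmus in fish. *Gad1*, which makes GABA (r = 0.97), and *St6gal2*, a sialyltransferase (r = 0.93), came next. *Cnpy1* lies at chr5:28200819-28245806 on the minus strand, 28652 bases beyond the 3' end of *En2*. It had 1202 and 1033 counts in Lung-pNSC, 1216, 1270 and 1288 in Sox2-GFP lung pNSCs, and 619 and 681 in Brain-NSC. The tail and DRG groups were low, with 11 and 13 in Tail-pNSC, 13, 12 and 9 in Wnt1Cre-mTmG Tail pNSCs and 0, 1 and 0 in Wnt1Cre-mTmG DRG pNSCs. Wnt1Cre-mTmG brain NSCs had 46, 37 and 47. *Cnpy1* was chosen for its likeness to *En2* over these same groups, so these values are a description with no test. The pair parted between the Wnt1Cre-mTmG pNSCs, where *Cnpy1* had more counts in Tail than in DRG pNSCs and *En2* was lower in Tail.

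For *Gbx2* the nearest genes were *Mrps35*, a mitochondrial ribosomal protein gene (r = 0.97), *Fam126a* (0.96) and *Akap17b* (0.95). The nearest to *En1* were *Zfp64* (0.87), *Hs3st3b1* (0.86) and *Yif1a* (0.84), and those to *Lmx1b* were *Slco1c1*, a thyroid hormone transporter gene (0.92), *Rab21* (0.85) and *Pigm* (0.85). *Lmx1a* resembled other genes highest in Tail, *Slc45a2* of pigment cells, *Bmp8a*, and *Col2a1* of cartilage (each with r of at least 0.998), of which *Col2a1* also had 6.10 cpm in DRG NCSCs and 1.88 cpm in Sox2-GFP brain NSCs. For a gene that a single group dominates, r lies near 1 with any other such gene. The nearest genes depended on the pseudocount. With 0.1 in place of 1, *Cnpy1* and *Mrps35* were again first for *En2* and *Gbx2*, whereas *Grin3a* took the place of *Gad1* for *En2*, *Abitram* and *D130058E05Rik* came next for *Gbx2*, *Zfp521* was among the 3 for *En1*, and *Lmbr1* and *Pou2f1* were nearest to *Lmx1b*.

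The promoter of *Gbx2* is shown because it lies within *D130058E05Rik*, a gene on the opposite strand (chr1:89930234-89933290, plus) that overlaps *Gbx2* by 946 bases and was picked after its values were seen. The window is chr1:89931127-89931426, minus strand, of GRCm38.p6 (RefSeq), 250 bases before and 50 after the gene start, with CG dinucleotides in capitals.
Gbx2: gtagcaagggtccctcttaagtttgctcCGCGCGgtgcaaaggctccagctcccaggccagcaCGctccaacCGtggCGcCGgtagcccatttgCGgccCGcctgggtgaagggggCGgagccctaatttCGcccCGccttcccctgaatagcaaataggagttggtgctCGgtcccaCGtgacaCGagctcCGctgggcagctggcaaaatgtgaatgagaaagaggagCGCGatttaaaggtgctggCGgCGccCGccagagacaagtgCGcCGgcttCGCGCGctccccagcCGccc
It held 27 CG dinucleotides. The windows of *En1*, *Lmx1b* and *Lmx1a*, the only other members with an entry, held 23, 24 and 12, and the median over 32851 promoters was 7. None of the 4 windows held CTTTGA, a core of Tcf/Lef sites (on either strand in 16.0% of all promoters), or TAATTA, a homeodomain core (5.29%). *D130058E05Rik* had 699 and 797 counts in Tail-pNSC, 397 and 398 in Brain-NSC, 312, 270 and 237 in Wnt1Cre-mTmG Tail pNSCs and 54, 30 and 41 in Wnt1Cre-mTmG brain NSCs. Like *Gbx2*, it was at 0 to 4 counts in every library of Tail, Lung and DRG NCSCs. As a description with no test, its log2 differences were 1.02 between Tail-pNSC and Brain-NSC, 1.76 between Wnt1Cre-mTmG Tail pNSCs and brain NSCs, and 1.24 between DRG pNSCs and brain NSCs, where *Gbx2* had a difference of 0.24.

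**Figure D3:**
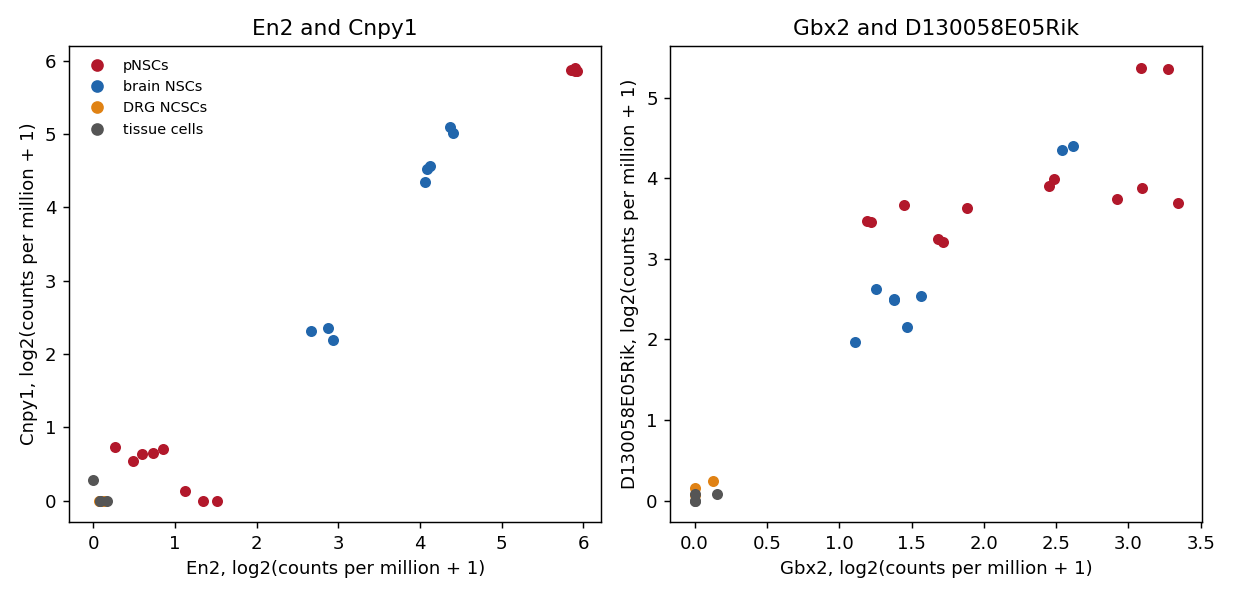
*Cnpy1* against *En2* (left) and *D130058E05Rik* against *Gbx2* (right), both axes log2(TMM-scaled cpm + 1), with 1 point per library coloured by kind of cell. Lung pNSC libraries sit together at the top right for *En2* and *Cnpy1*, and tissue cells and DRG NCSCs sit near 0 in both panels.

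Of 12 other genes of the isthmus, 9 were tested in Tail-pNSC against Brain-NSC and 2 were higher and 3 lower (median log2 fold change -0.60, against 0.00 over all genes, of which 10.9% were called). In Wnt1Cre-mTmG Tail pNSCs against brain NSCs 3 of 8 were higher and 3 lower (median 0.25, against 18.2% of all genes called), in DRG pNSCs against brain NSCs 1 was higher and 4 lower (median -3.14, against 0.01 and 9.53% of all genes called), and in DRG NCSCs against brain NSCs 1 was higher and 6 lower (median -3.90, against 36.9% of all genes called). *Otx2*, the midbrain-side counterpart of *Gbx2*, was at 0 in every library of pNSCs, DRG NCSCs and tissue cells. It had 56 to 61 counts in Brain-NSC, 465 to 657 in Sox2-GFP brain NSCs and 17 to 23 in Wnt1Cre-mTmG brain NSCs. *Otx2* passed the filter only through these brain NSC libraries, so its lower level in the pNSCs is given with no test. The numbers of lower genes above include it. In the Wnt1Cre-mTmG fit, *Otx1* and *Cnpy1* also passed the filter through the brain NSCs alone (128 to 151 and 37 to 47 counts). Against these brain NSCs they could only be called lower, so the numbers of lower genes and the medians are a description. *Otx1*, its paralog, had 12 to 19 counts in Tail-pNSC against 326 to 378 in Brain-NSC (-4.38, adjusted p = 4.92e-90), and 0 in Wnt1Cre-mTmG Tail pNSCs against 128 to 151. The early boundary genes *Pax2*, *Pax8* and *Wnt1* had at most 2, 5 and 7 counts in any library, and *Pax5* at most 3 outside Tail (8 to 17) and Lung (586 to 611). *Sp8*, a zinc finger factor that acts with FGF signalling at the isthmus, and *Fgf18*, another FGF ligand, were the higher ones in Tail-pNSC and were named after their values were seen, as was *Gbx1*, a paralog of *Gbx2*. *Sp8* had 32 to 37 counts in Tail-pNSC against 0 to 1 in Brain-NSC and 961 to 1075 in Wnt1Cre-mTmG Tail pNSCs against 5 in each brain NSC library, and none in Wnt1Cre-mTmG DRG pNSCs. *Fgf18* had 14 to 16 counts in Tail-pNSC against 3 to 6 in Brain-NSC, and 63 to 70 in Wnt1Cre-mTmG Tail pNSCs against 0 to 1 in brain NSCs. *Gbx1* had 15 to 16 counts in Wnt1Cre-mTmG Tail pNSCs and 6 to 9 in DRG pNSCs against 0 to 2 in brain NSCs. The values of *Sp8*, *Fgf18* and *Gbx1* are a description with no test, because these genes were picked from the same data. *Tle4*, a corepressor of engrailed, had 505 to 5139 counts and was in no group near 0.

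Of 18 genes of FGF reception and feedback, *Fgfr1*, *Spred1*, *Dusp6* and *Etv5*, a receptor, 2 feedback inhibitors and an FGF-induced transcription factor, had at least 385 counts in every library, whereas *Klb*, a co-receptor, had a mean of 0.201 cpm over all libraries. The pNSCs were grown with added bFGF. In Tail-pNSC against Brain-NSC 1 of 17 was higher and none lower (10.9% of all genes called), *Il17rd*, a feedback inhibitor also called Sef (1.35). In Wnt1Cre-mTmG Tail pNSCs against brain NSCs 2 of 16 were higher (18.2% of all genes called), *Il17rd* (1.05) and the receptor *Fgfr3* (1.04). In DRG pNSCs against brain NSCs 1 was lower (9.53% of all genes called), the receptor *Fgfr2* (-1.36). *Il17rd*, *Fgfr3*, *Fgfr2* and *Klb* were named after their values were seen, so their values are a description. Tail-pNSC had 9 higher and 3 lower than Tail (46.7% of all genes called), with *Etv5* higher by 4.24, and DRG pNSCs had 8 higher and 1 lower than DRG NCSCs (38.3% of all genes called).

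Of 22 genes of the roof plate, floor plate and the dopaminergic and serotonergic programmes in which *Lmx1a* and *Lmx1b* take part, 2 were higher and 2 lower of 16 tested in Tail-pNSC against Brain-NSC (10.9% of all genes called), and 1 was higher and 15 lower against Tail (46.7%). The lower ones included *Rspo1*, and the 2 higher were *Gata2* (1.17) and *Foxa2*, of which *Rspo1* and *Foxa2* had at most 5 counts in Tail-pNSC. *Rspo1* and *Foxa2* were named after their values were seen. *Msx1*, a roof plate factor also used in the limb and skin, was lower in Tail-pNSC than in Tail (-3.72, adjusted p = 1.44e-156), as were *Gata3* (-8.19), *Gata2* (-3.79) and *Nr4a2* (-3.89). In the Wnt1Cre-mTmG experiment, 2 of 12 were higher and 3 lower in both pNSC groups against brain NSCs (18.2% of all genes called for Tail and 9.53% for DRG). *Msx1* was higher in DRG pNSCs (2.22, adjusted p = 5.04e-09).

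Of 13 hindbrain and rhombic lip genes, 4 were higher and 1 lower of 9 tested in Tail-pNSC against Brain-NSC (median 0.86, against 10.9% of all genes called), and 6 were higher and 1 lower of 8 in both Wnt1Cre-mTmG Tail and DRG pNSCs against brain NSCs (medians 2.59 and 2.94, against 18.2% and 9.53% of all genes called). The medians over all genes were 0.00, 0.00 and 0.01. *Hoxa3*, a posterior hindbrain Hox gene, was higher in all 3 (1.51, 2.48 and 4.05, with adjusted p = 3.78e-34, 1.07e-06 and 8.92e-10). *Irx2* was higher in the Wnt1Cre-mTmG pNSCs (2.70 in Tail and 2.93 in DRG, adjusted p = 6.40e-13 and 1.21e-12). Of 14 forebrain genes, none was higher and 5 of 10 were lower in Tail-pNSC (median -1.76), and all 8 tested were lower in both Wnt1Cre-mTmG pNSC groups (medians -7.79 and -7.06), beside the same shares over all genes. Forebrain genes at or near 0 in the pNSCs passed the filter through other groups. In the Wnt1Cre-mTmG fit, *Six3*, *Nr2e1* and *Nkx2-1* passed through the brain NSCs alone (647 to 759, 409 to 459 and 8 to 10 counts). Elsewhere in that fit these genes had at most 3 counts in a library. Such genes could only be called lower, so the numbers of lower forebrain genes are a description. *Six3*, a gene of the anterior forebrain, and *Nr2e1*, an NSC maintenance factor also called Tlx, had 28 to 34 and 802 to 811 counts in Brain-NSC and none in Tail-pNSC. *Lhx2* did not pass in Tail-pNSC (0.10, adjusted p = 0.231) and was lower in the Wnt1Cre-mTmG pNSCs (-4.28 in Tail and -1.50 in DRG).

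**Figure D4:**
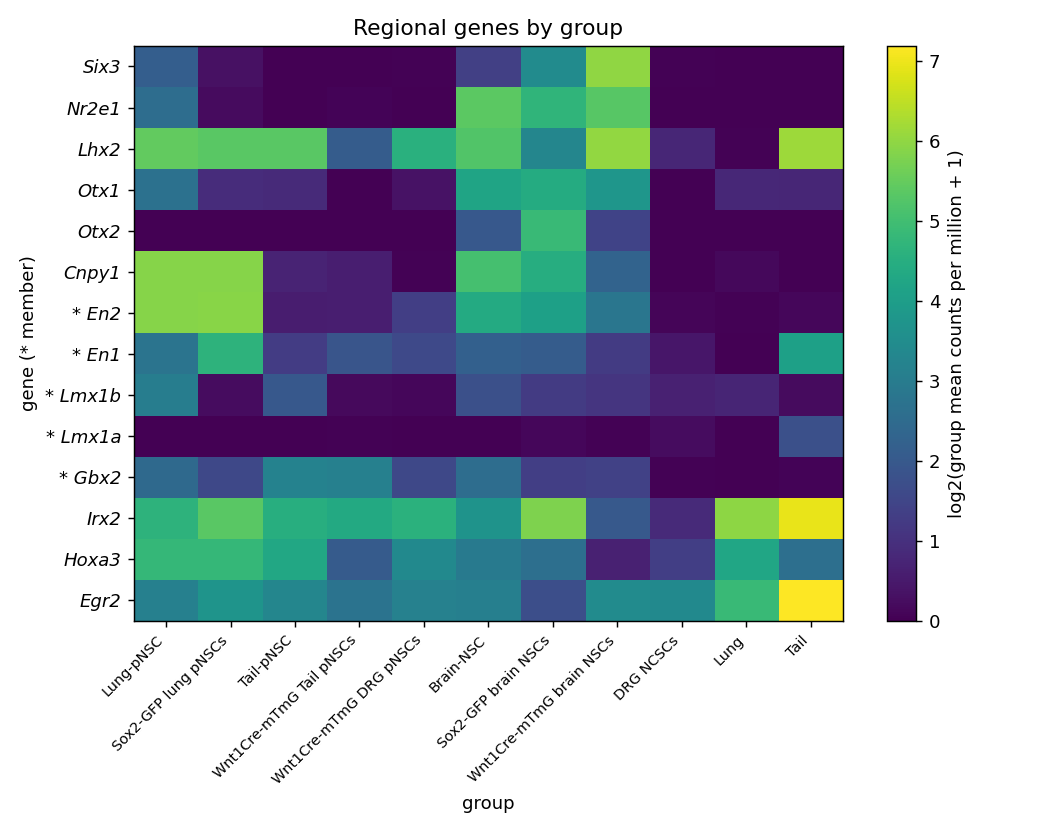
Group means as log2(TMM-scaled cpm + 1) (colour) of forebrain, isthmus and hindbrain genes (rows, members marked with an asterisk) in the 11 groups (columns). *Otx2* is at 0 outside the 3 groups of brain NSCs, and *En2* and *Cnpy1* are highest in the lung pNSCs.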

How the data were processed

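PolyA-selected RNA of 28 samples was sequenced single-end on a NextSeq500 from NEBNext Ultra libraries. Per the study's methods and the submitters' processing notes, the authors aligned reads to GRCm38 with HISAT2 2.2.1, annotated them with Cufflinks 2.2.1 and assigned them to genes with htseq-count 1.99.2, which gives raw counts. The deposited values are raw counts of 28244 genes, with totals of 9808246 to 22637031 per sample. Strand setting, counting mode and annotation release are not given in the sources used here. Groups came from the sample titles.

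Counts were analysed with edgeR 4.0.16 in R 4.3.3: filterByExpr (minimum count 10, minimum total 15), TMM scaling and the two-sided quasi-likelihood test with Benjamini-Hochberg adjustment over all genes tested. One fit was made per experiment (16948, 16234 and 14448 genes for the first, the Sox2-GFP and the Wnt1Cre-mTmG experiment, with Lung joined to the Sox2-GFP groups), and 1 over all 28 samples (17393 genes) for the interaction and for levels. The same lung cells thus serve both lung pNSC groups. A standard error is the fold change divided by the square root of F. A fold against a group with no count uses a floor of 3 counts per library, and ratios on few counts have exact conditional intervals on pooled counts, which cover counting error only. Positions and exon lengths are from GENCODE M21. Alternatives were DESeq2 1.42.0, upper-quartile scaling, no filter, no fold limit, fits of only the groups compared, a replicate block and each library left out.

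On simulated counts for Tail-pNSC against Brain-NSC, with 200 of 16210 genes changed 4-fold, the test recovered 200 and made 1 false call. The changed genes were drawn from levels above those of *En1*, *Gbx2*, *Lmx1b* and *Fgf17* in these groups, with the same spread for every gene. The recovery therefore does not cover members at such low counts. The members and the gene lists were chosen with earlier results of these data known. Of each list, the genes named are those among its 4 most abundant that were called in a tested comparison, with *Otx2*, *Pax2*, *Pax5*, *Pax8* and *Wnt1* always, and others are marked as named after their values were seen. Some genes of these lists count in the totals and are not reported here by name. The most similar genes are the 3 highest Pearson r among genes with a group mean of at least 5 cpm.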

Additional observations from a re-analysis of the deposited data

Results flagged for a closer look

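The tail pNSC effect differed between the first and the Wnt1Cre-mTmG experiment, by the interaction test, for *En1* (-2.33), *En2* (-1.83), *Gbx2* (-1.53) and *Lmx1b* (3.28), as differences of log2 fold changes. *En1* was lower than in brain NSCs in Tail-pNSC and higher in Wnt1Cre-mTmG Tail pNSCs. *En2* was lower and *Gbx2* higher in both, by different amounts, with *Gbx2* in Tail-pNSC under the fold limit.

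*Lmx1b* had a log2 difference of 1.60 in Lung-pNSC against Brain-NSC and of -3.03 in Sox2-GFP lung pNSCs against Sox2-GFP brain NSCs, with every lung pNSC library of the first above and every one of the second below its brain NSC libraries. The difference between these effects was not tested. Age of the lung, reporter and mouse line differ between the groups and cannot be told apart.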

How the results depend on the processing

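Of 9 comparisons and the interaction, the number of members called stayed within 1.5 times the value given, except in 2 settings. These numbers include *Lmx1a* against Tail and in Tail against Lung, and *Lmx1b* against Wnt1Cre-mTmG brain NSCs. With only the groups compared in the fit, Wnt1Cre-mTmG Tail pNSCs against DRG NCSCs had 2 members called in place of 4, since *En2* and *Lmx1b* then were under the low-count filter. With no filter, Wnt1Cre-mTmG DRG pNSCs against DRG NCSCs had 7 called. Leaving out each library gave 2 to 3 members called for Tail-pNSC against Brain-NSC, 4 to 5 against Tail, 2 to 3 for Tail against Lung, 3 to 4 for Wnt1Cre-mTmG Tail pNSCs and 2 for DRG pNSCs against brain NSCs, 2 between these pNSCs, 3 to 4 for DRG NCSCs against brain NSCs, 4 for each pNSC group against DRG NCSCs, and 4 to 5 for the interaction. Directions reversed for uncalled or described values alone, when 1 library was left out: *Fgf17* in Tail-pNSC against Tail (-2.17 to 0.17) and in Lung-pNSC against Brain-NSC (-1.09 to 0.24, also 0.21), *Gbx2* in Tail against Lung (0 to 4.22, on at most 2 counts) and in Sox2-GFP lung pNSCs against brain NSCs (-0.015 to 0.53). *En1* in Wnt1Cre-mTmG Tail pNSCs against brain NSCs was under the fold limit with upper-quartile scaling (0.98), and *Lmx1b* in DRG NCSCs was past it (-1.02). The cause was not tested.

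Same-numbered replicates did not deviate together, with correlations of -0.0293 to 0.028. Within groups other than DRG NCSCs the chi-square per degree of freedom was 1.09 to 2.82, with 1.61 to 2.82 in the first experiment. Counting error is thus a part of these deviations that differs between groups. The correlations therefore cannot tell whether the numbers pair the samples. A replicate block gave 2, 5, 3, 4, 2, 2, 3, 4, 4 and 4 members called in the comparisons in the order above, and 1 call was lost, *Fgf17* in Tail-pNSC against Brain-NSC (adjusted p = 0.0507).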
